A study of Mus musculus with 75 samples.

Results

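The 8 small nucleolar RNA (snoRNA) host genes Snhg1, Snhg3, Snhg5, Snhg6, Snhg8, Snhg12, Gas5 and Zfas1 were followed across 75 mouse kidney libraries, as 8 of the 32245 gene rows of the deposited count table. They were taken by symbol. The set was chosen by measured values: Snhg6 tended to be higher in obstructed kidneys in these same data, so the comparison of obstructed with contralateral kidneys is given here as a description, with no p-value of the 8 genes, and nothing is read from how many of them were called in it. The study used unilateral ureter obstruction (UUO), in which 1 ureter is tied and the kidney behind it is injured while the contralateral (CL) kidney of the mouse drains normally, and sequenced RNA of whole kidneys of adult mice 3 days after the operation.

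The kidneys fell into 12 groups, from 3 arms with 2 kinds of mice each. In the first arm, IgG mice (8 CL and 8 UUO libraries) received a control human IgG Fc and ABT mice (7 and 7) received ABTAA, an antibody that binds ANGPT2 and activates the endothelial receptor TIE2. In the second, VeWT mice (7 and 8) were controls without induction that carried Cdh5-CreERT2 and 1 floxed Veptp allele, and VeKO mice (6 and 8) were Veptp iECKO mice, in which tamoxifen and a Cdh5-driven Cre delete Veptp (gene symbol Ptprb), a phosphatase that acts on TIE2, in endothelial cells. In the third, PbWT mice (4 and 4) were Cre-negative controls with a floxed Pdgfb allele, and PbKO mice (4 and 4) carried a tamoxifen-inducible Actb-CreERT2 that deletes Pdgfb throughout the body. Mice of the ABTAA arm were C57BL6/J or wild type from the breeding, and the genetic arms were on mixed backgrounds. Kidneys of sham-operated mice are among the PbWT CL libraries and are not marked as such in the labels.

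A snoRNA host gene is transcribed, spliced and then taken apart in an unusual way: the introns release the snoRNAs, which stay in the nucleolus, while the spliced exons often code for no protein and are in several cases removed by nonsense-mediated decay during translation. The box C/D snoRNAs guide 2'-O-methylation of ribosomal RNA and the box H/ACA snoRNAs guide its pseudouridylation, so the host genes feed ribosome production. Several hosts, Gas5 and Snhg1 among them, begin with a 5' terminal oligopyrimidine tract, and Gas5 got its name as a growth arrest-specific transcript because it accumulates when cells stop growing.

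The gene bodies held 32 snoRNA entries on the host's strand in the GENCODE vM21 annotation of mm10, with Snora16a and Snord80 entered at 2 overlapping spans each and 1 entry of Gas5 named Mir5117. Snhg6 (chr1:9941959-9944118, minus strand) held 1 of them, Snord87. Snhg5 (chr9:88521050-88522929, minus) held 2, Snhg1 (chr19:8723475-8726443, plus) held 8, Gas5 (chr1:161034422-161038539, plus) held 10 and Zfas1 (chr2:167062934-167065862, plus) held 3, and no snoRNA in these 5 hosts had a Snora symbol, the symbol of the box H/ACA class. Snhg3 (chr4:132348014-132353686, minus) held 2 and Snhg8 (chr3:123507552-123508404, minus) held 1, all with Snora symbols. Snhg12 (chr4:132308623-132311024, plus) held 5, of which 4 had Snora symbols and the other, Snord99, belonged to the C/D class. The sequences below show 1 snoRNA per host and class, since the class a host carries is set beside its values further on. The capitals mark box C (TGATGA) and box D (CTGA), or the ACA that ends the H/ACA class.

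Snord87: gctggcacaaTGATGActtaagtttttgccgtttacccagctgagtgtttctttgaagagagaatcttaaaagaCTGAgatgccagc
Snord50a: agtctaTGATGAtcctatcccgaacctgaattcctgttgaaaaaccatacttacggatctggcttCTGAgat
Gm22744: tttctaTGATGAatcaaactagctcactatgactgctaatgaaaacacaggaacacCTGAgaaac
Snord47: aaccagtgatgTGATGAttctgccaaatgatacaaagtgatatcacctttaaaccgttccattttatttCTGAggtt
Snord12: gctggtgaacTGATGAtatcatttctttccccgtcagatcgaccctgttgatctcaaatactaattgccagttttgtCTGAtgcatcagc
Snord99: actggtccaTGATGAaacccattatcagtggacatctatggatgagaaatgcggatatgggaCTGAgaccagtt
Snora73a: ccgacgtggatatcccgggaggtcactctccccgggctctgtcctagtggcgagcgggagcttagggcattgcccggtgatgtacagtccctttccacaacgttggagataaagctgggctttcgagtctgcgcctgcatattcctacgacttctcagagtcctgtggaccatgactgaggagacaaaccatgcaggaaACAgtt
Snora24: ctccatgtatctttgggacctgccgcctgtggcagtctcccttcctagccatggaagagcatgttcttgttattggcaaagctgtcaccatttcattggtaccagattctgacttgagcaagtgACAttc
Snora61: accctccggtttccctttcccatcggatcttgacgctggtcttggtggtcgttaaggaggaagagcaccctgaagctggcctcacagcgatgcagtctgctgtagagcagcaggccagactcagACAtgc

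Snord87 sits in Snhg6 at chr1:9942463-9942549, where no annotated Snhg6 transcript has an exon. Snord50a (chr9:88521529-88521600) belongs to Snhg5, Gm22744 (chr19:8725092-8725156) to Snhg1, Snord47 (chr1:161038082-161038158) to Gas5 and Snord12 (chr2:167065276-167065365) to Zfas1. Snord99 (chr4:132310691-132310764) and Snora61 (chr4:132310240-132310369) belong to Snhg12, Snora73a (chr4:132352775-132352979) to Snhg3 and Snora24 (chr3:123507937-123508066) to Snhg8. Box C within the first 25 bases together with box D within the last 20 was found, on the snoRNA's own strand, in 21 of the 25 hosted snoRNAs without a Snora symbol, against 69.4% of the 98 annotated transcripts named Snord. ACA within the last 12 bases was found in 6 of the 7 with a Snora symbol, against 95.2% of the 42 named Snora. Such short motifs also occur elsewhere: the same search found both boxes in 20.2% and ACA in 49.2% of the 1558 annotated snoRNA transcripts of any name. Both copies in Snhg3, Snora73a and Snora73b, were the same at 198 of 205 positions. The levels of the snoRNAs themselves were not analysed here, because none of their symbols had a row in the count table.

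**Figure D1:**
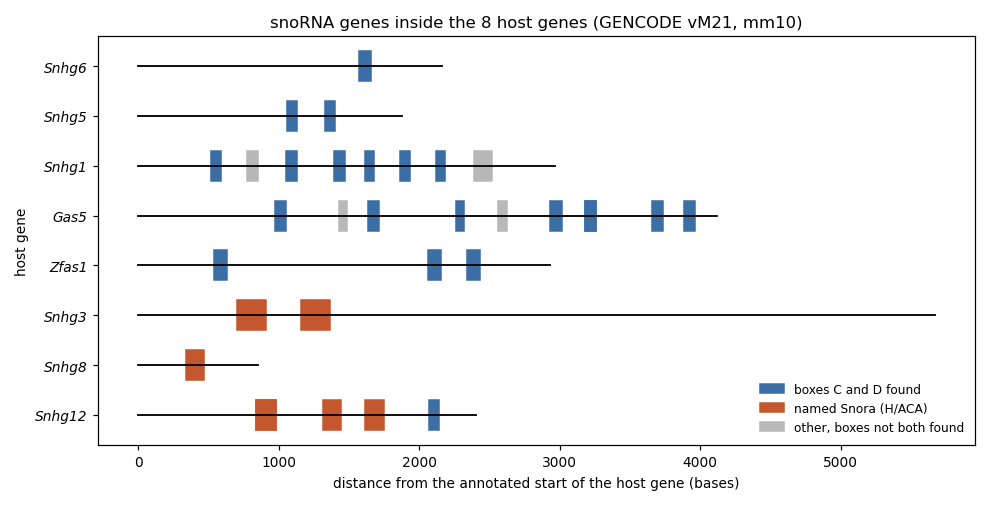
Position of the annotated snoRNA genes inside each host gene, as the distance in bases from the host's annotated start (horizontal axis), with 1 line per host gene as long as its annotated span. Blue boxes are snoRNAs in which boxes C and D were both found, orange boxes have a Snora symbol and grey boxes are others; orange boxes stand in Snhg3, Snhg8 and Snhg12.

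The libraries held 172827 to 2341800 counts, with a median of 757897, and 27946 genes had a count in at least 1 library. These are shallow libraries for genes of this level. Snhg6 had 2 to 88 counts per library with a median of 11, Snhg5 0 to 42 with a median of 7, and the most counted, Gas5, 34 to 633 with a median of 130. All 8 genes passed the filter on low counts in each of the 3 arms, in which 9579 (ABTAA), 11916 (Veptp) and 10923 (Pdgfb) genes were tested. Levels are in CPM, counts relative to the library total, scaled by TMM factors computed within an arm, so a level set beside that of another arm carries the difference between the scalings too. The labels do not say which CL and UUO libraries came from the same mouse.

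Library names took 2 forms, 30 with the sign _ and 45 without it, and the labels do not say what the form stands for. Every Pdgfb library had a name without _, while each group of the other 2 arms held both forms. In the Veptp arm the libraries named without _ held 178137 to 858624 counts, with TMM scaling factors of 0.67 to 0.96. Those named with _ held 960023 to 2341800 counts, with factors of 1.02 to 1.31. Form, depth and scaling thus cannot be told apart in that arm. The form moved with most of the 8 genes: in the Veptp arm the mean log2(CPM + 1) of Snhg6 was 1.45 to 1.88 higher in the libraries named without _, that of Gas5 1.30 to 1.79 higher and that of Snhg8 1.41 to 3.13 higher, over the 4 groups. Zfas1 (1.31 to 1.86), Snhg12 (0.98 to 1.91), Snhg1 (0.86 to 1.38) and Snhg3 (0.58 to 1.35) were higher there in all 4 groups too, and Snhg5 differed by -0.31 to 1.28, without minus with the sign. In the ABTAA arm Snhg6 (0.65 to 1.00), Snhg8 (0.76 to 1.30), Gas5 (0.44 to 0.83) and Snhg3 (0.089 to 1.43) were higher in all 4 groups in the libraries named without _. Zfas1 (-0.015 to 0.86), Snhg12 (-0.12 to 0.60), Snhg1 (-1.07 to 0.35) and Snhg5 (-1.05 to 0.28) had both signs. In the VeKO CL group 4 of 6 names had the sign and in the VeKO UUO group 4 of 8. The form was thus not even between these kidneys. In the Veptp arm the numbers 3, 4, 7 and 8 in names with _ stand for opposite genotypes in the CL and the UUO library, and whether labels are crossed was not tested. UUO minus CL differences within each form are given after the counts of called genes.

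The deleted genes were looked at first, as a check of the labels. Ptprb, the gene of VEPTP, differed by -0.69 ± 0.33 (log2 fold change ± SE) between VeKO and VeWT UUO kidneys and by -0.63 ± 0.36 between the CL kidneys, with adjusted p-values of 0.99994 and 0.999946 by edgeR's quasi-likelihood test. Pdgfb, a growth factor chain that recruits pericytes, was at 33.5 to 40.6 CPM in PbKO and 43.0 to 57.5 CPM in PbWT UUO kidneys (-0.47 ± 0.21, adjusted p = 0.125, edgeR). In CL kidneys the order was the other way, 16.7 to 25.0 CPM in PbKO and 4.45 to 19.9 CPM in PbWT, with overlap, and the difference of 0.78 ± 0.33 was not called (adjusted p = 0.999988, edgeR). The order in CL kidneys goes against the label, so PbKO stands below for the libraries labelled Pdgfb iKO.

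Snhg6, the host of Snord87, had a higher mean in UUO than in CL kidneys in all 6 mouse groups. In PbWT mice its level was 16.3, 18.9, 19.6 and 21.1 CPM in the 4 CL libraries and 32.4, 34.7, 36.1 and 39.0 CPM in the 4 UUO libraries, a difference of 0.90 ± 0.22 (log2 fold change ± SE). Every UUO library stood above every CL library here. In the libraries labelled Pdgfb iKO it was at 14.0, 15.9, 17.6 and 18.0 CPM in CL and 10.0, 29.2, 32.5 and 39.8 CPM in UUO kidneys (0.95 ± 0.26). There 3 UUO libraries lay above all CL libraries and 1, with 3 counts of the gene, lay below all of them. How many of all genes lack overlap was not counted, so nothing is read from overlap or its absence here and below.

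In IgG mice the lowest, median and highest values of Snhg6 were 4.97, 15.8 and 31.1 CPM in CL and 14.6, 26.5 and 55.1 CPM in UUO kidneys, a difference of 0.85 ± 0.31. In ABT mice they were 9.92, 13.5 and 25.5 CPM in CL and 10.6, 21.9 and 41.0 CPM in UUO kidneys (0.45 ± 0.31, and 0.27 without ABT UUO replicate 4). In both the groups overlapped, and 3 IgG and 3 ABT UUO libraries lay above the highest CL library. VeWT mice had 2.80, 6.98 and 22.5 CPM in CL and 7.34, 20.7 and 34.0 CPM in UUO kidneys (1.30 ± 0.52). VeKO mice had 2.88, 9.06 and 27.2 CPM in CL and 8.19, 13.8 and 78.8 CPM in UUO kidneys (0.81 ± 0.57), again with overlap in both kinds of mice. The highest VeKO UUO value belonged to replicate 1, with 11 counts of the gene, and the difference was 0.42 without it. Without the libraries numbered 3, 4, 7 and 8 the differences were 1.31 ± 0.62 in VeWT and 0.92 ± 0.71 in VeKO mice.

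Ordered by mean log2(CPM + 1), Snhg6 ran from VeWT CL (3.21 ± 0.90, SD) over VeKO CL, IgG CL, ABT CL, PbKO CL, VeKO UUO, VeWT UUO, PbWT CL, ABT UUO, PbKO UUO and IgG UUO (4.78 ± 0.62) to PbWT UUO (5.19 ± 0.11). None of the 11 steps between neighbours was larger than the SDs of both, so no neighbours in this order differed beyond their spread. Of the 6 groups with the highest means 5 were UUO kidneys, and PbWT CL was the other.

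**Figure D2:**
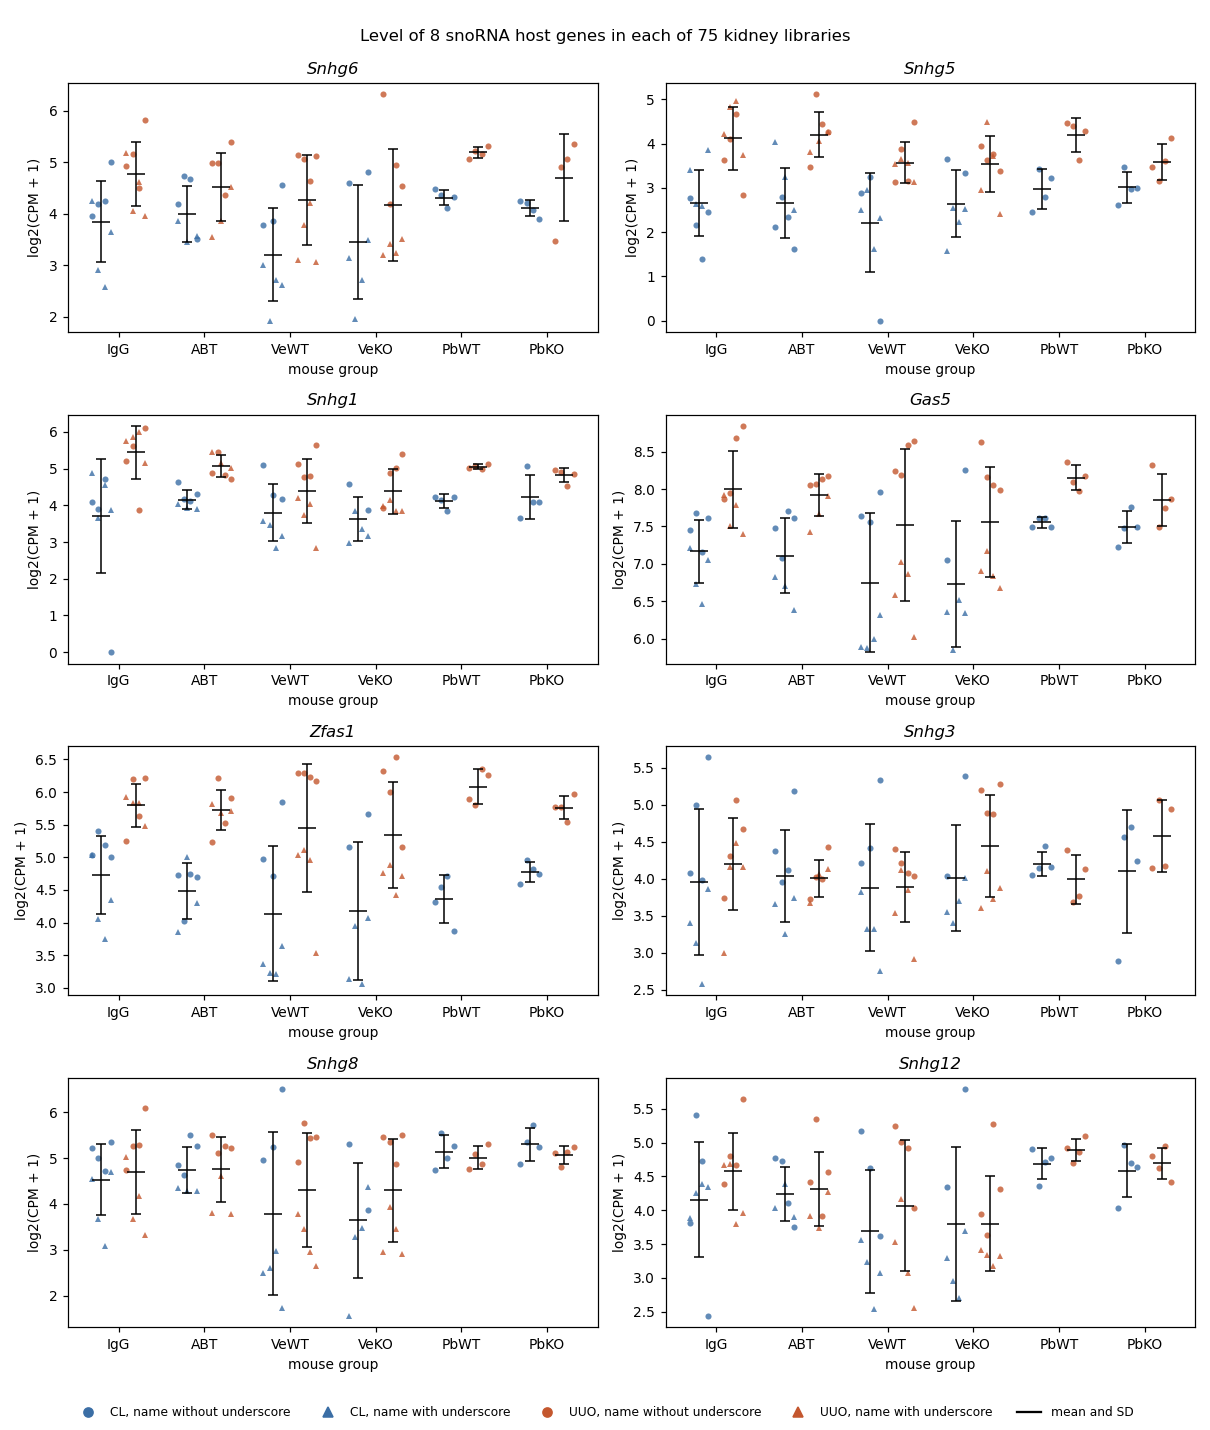
Level of each of the 8 genes, as log2(CPM + 1), in the libraries of the 12 groups, 1 point per library, with the group mean and SD. For Snhg6 the PbWT UUO libraries all lie above the PbWT CL libraries, while CL and UUO libraries overlap in the other 5 kinds of mice.

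Snhg5, the host of both copies of Snord50, had few counts. In IgG mice its lowest, median and highest values were 1.64, 5.08 and 13.5 CPM in CL and 6.12, 16.8 and 30.0 CPM in UUO kidneys, a difference of 1.60 ± 0.35, and 5 of 8 UUO libraries lay above all CL libraries. In PbWT mice it was at 4.45, 5.91, 8.39 and 9.78 CPM in CL and 11.4, 18.5, 20.1 and 21.2 CPM in UUO kidneys (1.29 ± 0.33), without overlap. The PbKO difference, 0.78 ± 0.40, was the lowest of the 6 kinds of mice, and it was 0.49 without PbKO UUO replicate 4. ABT (1.56 ± 0.35), VeWT (1.16 ± 0.37) and VeKO mice (1.21 ± 0.42) lay between these ends.

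Snhg1 carries a run of C/D snoRNAs in its introns. IgG mice had 0, 14.8 and 28.6 CPM as lowest, median and highest values in CL and 13.5, 50.3 and 67.3 CPM in UUO kidneys (1.33 ± 0.26), and 7 of 8 UUO libraries were above all CL libraries. In ABT mice the CL values of 14.0, 16.3 and 23.9 CPM and the UUO values of 25.0, 31.1 and 42.9 CPM did not overlap (0.93 ± 0.27). The PbWT libraries were apart as well, at 13.3, 16.8, 17.8 and 17.8 CPM in CL and 30.8, 31.2, 32.5 and 34.1 CPM in UUO kidneys (0.96 ± 0.22). The difference was 0.61 ± 0.26 in PbKO, 0.65 ± 0.38 in VeWT and 0.87 ± 0.42 in VeKO mice, with overlap in each, and the VeWT value was 1.01 without VeWT CL replicate 1.

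Gas5, the host of Snord47, Snord78 and Snord80, had the most counts of the 8 genes. IgG mice had 87.0, 144 and 203 CPM as lowest, median and highest values in CL and 169, 237 and 459 CPM in UUO kidneys (0.87 ± 0.21), with 6 of 8 UUO libraries above all CL libraries. PbWT mice had 178, 179, 195 and 196 CPM in CL and 249.8, 273, 287 and 329 CPM in UUO kidneys (0.62 ± 0.15), without overlap. The libraries labelled Pdgfb iKO had the smallest difference, 0.36 ± 0.15, from 149, 178, 179.6 and 216 CPM in CL to 178, 214, 233 and 318 CPM in UUO kidneys, and they overlapped. Without PbKO UUO replicate 1 it was 0.22. The difference was 0.76 ± 0.22 in ABT, 0.83 ± 0.43 in VeWT and 0.77 ± 0.45 in VeKO mice, and the last was 1.23 without VeKO CL replicate 2.

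Zfas1, the host of Snord12, differed by at least 1 on the log2 scale in each kind of mouse with all libraries. With 1 library left out it fell to 0.89 in IgG (IgG CL replicate 6) and 0.93 in VeKO mice (VeKO UUO replicate 3). In PbKO mice it fell to 0.94 (PbKO UUO replicate 4). The difference was lowest in IgG mice, 1.00 ± 0.21, with 12.4, 31.4 and 41.3 CPM in CL and 37.0, 55.8 and 73.4 CPM in UUO kidneys as lowest, median and highest values. It was highest in PbWT mice, 1.79 ± 0.20, with 13.6, 18.9, 22.4 and 25.1 CPM in CL and 55.0, 58.6, 76.0 and 80.5 CPM in UUO kidneys. PbKO mice had 23.1, 25.9, 27.3 and 30.1 CPM in CL and 45.3, 53.6, 53.8 and 61.6 CPM in UUO kidneys (1.04 ± 0.21). CL and UUO kidneys did not overlap in PbWT, PbKO or ABT mice (13.5 to 31.2 against 36.5 to 73.5 CPM in the last), and did in IgG, VeWT and VeKO mice.

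The other 3 genes host Snora snoRNAs. Over the 6 kinds of mice Snhg3 differed by -0.20 ± 0.30 (PbWT) to 0.58 ± 0.32 (PbKO), Snhg8 by -0.21 ± 0.23 (PbKO) to 0.53 ± 0.74 (VeKO) and Snhg12 by -0.03 ± 0.56 (VeKO) to 0.40 ± 0.49 (VeWT). Each of these values moved by over 1.5 times with single libraries left out. The Snhg3 PbKO value was 0.26 without PbKO CL replicate 1, the Snhg8 VeKO value was 0.24 without VeKO CL replicate 3 and 0.28 without VeKO UUO replicate 4, and the Snhg12 VeWT value ran from 0.18 without VeWT UUO replicate 1 to 0.80 without VeWT CL replicate 1. In PbWT mice Snhg3 was at 15.6, 16.8, 16.8 and 20.7 CPM in CL and 11.8, 12.6, 16.6 and 20.0 CPM in UUO kidneys, with 2 UUO libraries below all CL libraries. Snhg8 was at 25.6, 31.0, 37.8 and 46.1 CPM in CL and 26.2, 28.4, 33.1 and 39.0 CPM in UUO kidneys. Snhg12 was at 19.6, 25.1, 26.2 and 28.9 CPM in CL and 24.8, 28.0, 29.3 and 33.1 CPM in UUO kidneys, where 2 UUO libraries lay above all CL libraries. CL and UUO libraries of these 3 genes overlapped in all 6 kinds of mice. Snhg3 shares 5592 bases of its span with Rcc1, a regulator of nuclear transport, on the same strand, so its counts are uncertain. Zfas1 shares 189 bases with Gm27494, annotated as misc_RNA, on the same strand. Snhg6 overlaps Mcmdc2 by 127 bases, Gas5 overlaps Zbtb37 by 428 and Zfas1 overlaps Znfx1 by 82 on opposite strands, and the strand setting of the counting is not given in the sources used here.

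Set out by hosted class, the median difference over the 6 kinds of mice was 0.77 to 1.25 for the 5 hosts without a Snora snoRNA and 0.09 to 0.16 for the 3 hosts with one. This split was noticed after the values were seen, sets 5 genes beside 3, and was not tested.

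**Figure D3:**
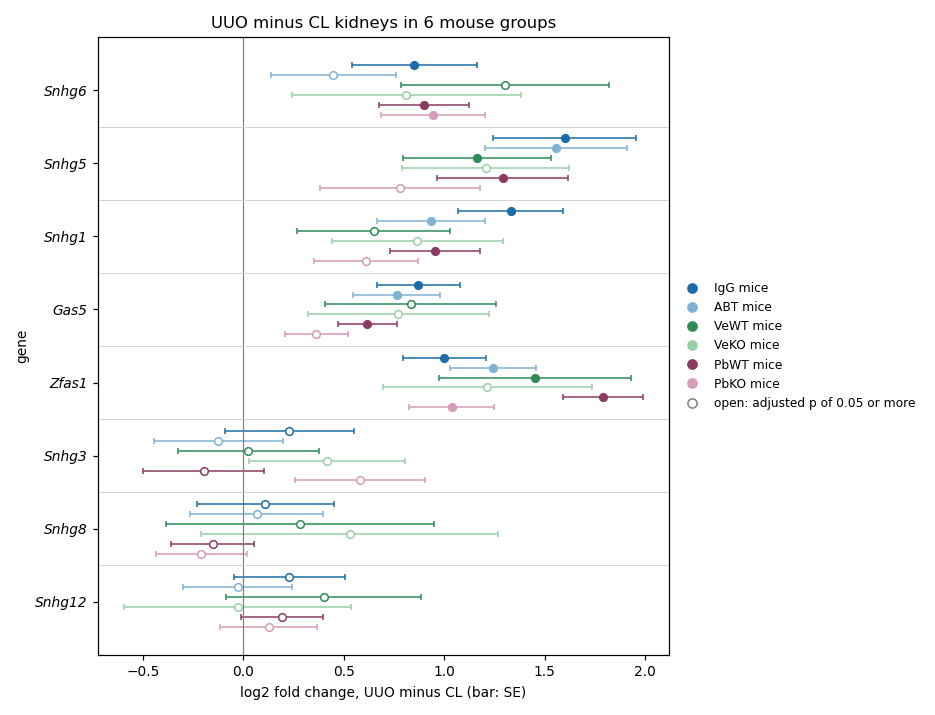
Fitted log2 fold change, UUO minus CL kidneys, of each of the 8 genes in the 6 kinds of mice, with the SE as bars. Snhg6, Snhg5, Snhg1, Gas5 and Zfas1 have values above 0 throughout, and Snhg3, Snhg8 and Snhg12 lie on both sides of 0.

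Counted by kind of mouse, 5 of the 8 genes were called higher in UUO kidneys (adjusted p under 0.05) in IgG mice, namely Snhg1, Snhg5, Snhg6, Gas5 and Zfas1, beside 16.3% of all genes tested. ABT mice had 4, without Snhg6, beside 12.6%. VeWT mice had 2, Snhg5 and Zfas1, beside 10.0%. VeKO mice had 0 by edgeR's quasi-likelihood test, by DESeq2 and by edgeR's exact test, beside 4.47% of all genes called by the first. At an unadjusted p under 0.05 there were 2 of the 8, beside 2407 of 11916 genes. The VeKO count was 4 with the shared library numbers as a replicate block and 3 with the form of the name as a covariate. PbWT mice had the same 5 genes as IgG mice, beside 17.9%, and PbKO mice had Snhg6 and Zfas1, beside 3.94%. Some other settings gave fewer. edgeR's exact test called 3 in IgG, 1 in VeWT and 1 in PbKO mice, beside 2698, 2004 and 615 genes in either direction. Counts thinned to the shallowest library gave 1, 0, 0, 1 and 0 in IgG, ABT, VeWT, PbWT and PbKO mice. How many of all genes were called is not given here for the thinned, blocked and form-adjusted fits or for those with libraries left out. Without the libraries numbered 3, 4, 7 and 8 VeWT mice had 0. The genes were chosen on this comparison, so nothing is read from these counts. The VeWT count was 1 without VeWT CL replicate 4 or 5 or VeWT UUO replicate 1, 2 or 3, and 0 without VeWT CL replicate 6 or 7 or VeWT UUO replicate 4. The VeKO count was 1 without VeKO CL replicate 1 or 2 or VeKO UUO replicate 8, and the PbKO count was 1 without PbKO CL replicate 3 or 4 or PbKO UUO replicate 2, 3 or 4.

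The median difference of the 8 genes was 0.86 in IgG, 0.61 in ABT, 0.74 in VeWT, 0.79 in VeKO, 0.76 in PbWT and 0.60 in PbKO mice, and that of all genes tested lay between -0.01 and 0.04. The mean log2(CPM + 1) of the 8 genes was 4.34 ± 0.37 (SD, n = 8) in IgG CL and 5.20 ± 0.33 (n = 8) in IgG UUO kidneys. In PbWT mice it was 4.67 ± 0.08 (n = 4) and 5.32 ± 0.12 (n = 4), and in PbKO mice 4.70 ± 0.32 (n = 4) and 5.13 ± 0.15 (n = 4). ABT mice had 4.43 ± 0.21 (n = 7) and 5.06 ± 0.29 (n = 7). The spread was wider in VeWT mice, 3.93 ± 0.80 (n = 7) and 4.68 ± 0.78 (n = 8), and in VeKO mice, 4.01 ± 0.80 (n = 6) and 4.69 ± 0.67 (n = 8).

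These differences are relative to TMM scaling. Without it the median of all genes, UUO minus CL, was higher by 0.21 in IgG, 0.14 in ABT, 0.15 in VeWT, 0.11 in VeKO, 0.37 in PbWT and 0.08 in PbKO mice. The share of called genes that were higher in UUO then went from 47.3% to 69.6% in IgG, from 50.3% to 66.7% in ABT, from 54.5% to 71.8% in VeWT, from 56.3% to 71.7% in VeKO, from 48% to 79.4% in PbWT and from 62.0% to 78.9% in PbKO mice. Snhg6, Snhg5, Snhg1, Gas5 and Zfas1 were higher in UUO under both scalings. The values below 0 of Snhg3 in ABT and PbWT mice, of Snhg8 in PbWT mice and of Snhg12 in ABT and VeKO mice lay above 0 without TMM.

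Within each form of library name, UUO kidneys had the higher mean of Snhg6, Snhg5, Snhg1, Gas5 and Zfas1 in 10 of 10 strata, which are 2 forms in each of 4 kinds of mice and 1 form in each of the Pdgfb arm's 2. On the scale of mean log2(CPM + 1) the Snhg6 difference was 0.29 to 1.11, that of Gas5 0.36 to 1.03 and that of Zfas1 0.59 to 1.72. Snhg1 had 0.43 to 2.02 and Snhg5 0.19 to 2.11. Snhg12 was higher in 8 strata and Snhg3 and Snhg8 in 6 each. The lowest Snhg6 and Snhg5 values came from VeKO mice with names that lack _, with 2 CL and 4 UUO libraries. In the VeKO libraries named with _ the differences were 0.51 and 1.18.

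**Figure D4:**
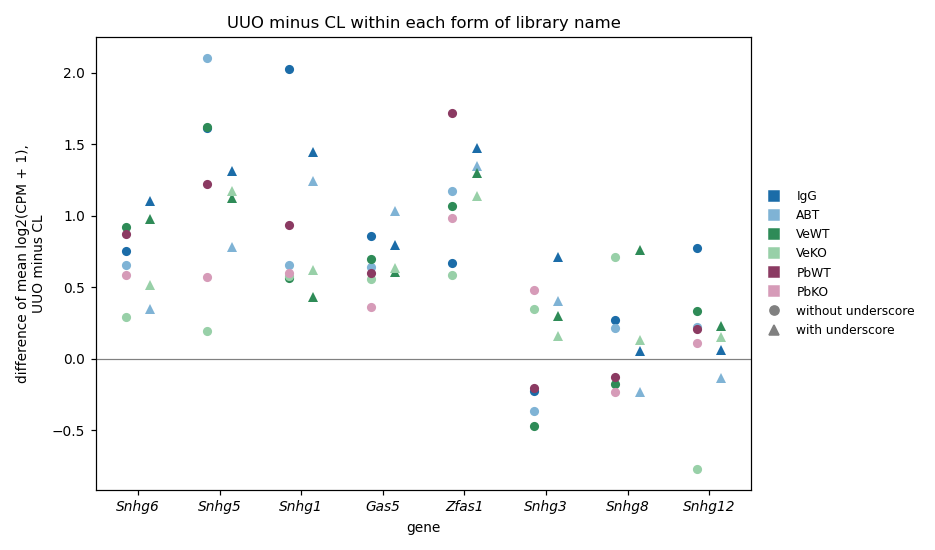
Difference of mean log2(CPM + 1), UUO minus CL, of each gene within the libraries whose names have or lack the sign _, in the 6 kinds of mice. All 10 points lie above 0 for Snhg6, Snhg5, Snhg1, Gas5 and Zfas1.

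Whole kidneys were sequenced, so fewer cells of a type and less RNA per cell cannot be told apart. Markers of several cell types moved with obstruction as well. The 4 tubular injury markers summed to 301 to 1703 CPM over the CL groups and 1824 to 4918 CPM over the UUO groups, and 4 of 4 were called higher in each kind of mouse. Macrophage markers summed to 69.5 to 168 and 126 to 367 CPM, with 4 to 6 of 6 called higher, and fibroblast markers to 65.2 to 457 and 186 to 1219 CPM, with 2 to 4 of 4 called higher. Markers of dividing cells summed to 6.85 to 124 and 78.9 to 271 CPM, with 4 of 4 called higher in 5 kinds of mice and 0 of 4 in PbKO mice. Those of tubule and podocyte summed to 7458 to 12974 and 3134 to 9456 CPM, with 3 to 6 of 8 called lower.

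Endothelial markers summed to 82.7 to 258 and 62.9 to 199 CPM, with 2 of 4 called higher in IgG, 1 in ABT and PbWT and 0 in VeWT and PbKO mice, and 1 lower in VeKO mice. Fat markers, 2 of 4 tested, summed to 11.1 to 396 and 8.14 to 581 CPM, with 1 called higher in IgG and 1 lower in PbWT mice. Plin1, a fat cell marker, was at 0 in all ABT CL libraries. The part of these cells in the levels of the 8 genes was not tested.

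Treated or knockout mice were then compared with their controls, a comparison that did not choose the genes. In none of the 9 such comparisons was any of the 8 genes called by edgeR's quasi-likelihood test with TMM and all libraries. Between ABT and IgG mice 0% of all genes were called by edgeR's quasi-likelihood test in UUO kidneys, in CL kidneys and in the difference of the UUO minus CL values, with 340, 303 and 315 genes at an unadjusted p under 0.05. DESeq2 called 0 in the 3 comparisons and edgeR's exact test 0 in the first 2. Snhg6 differed by -0.21 ± 0.31 in UUO kidneys (adjusted p = 0.999872, edgeR), by 0.19 ± 0.32 in CL kidneys (0.999906) and by -0.40 ± 0.44 in the UUO minus CL value (0.999477). With single libraries left out the UUO value ran from -0.38 without ABT UUO replicate 4 to -0.068 without ABT UUO replicate 5 and the CL value from 0.018 without ABT CL replicate 2 to 0.30 without IgG CL replicate 4. The difference of the UUO minus CL values then ran from -0.57 without ABT UUO replicate 4 to -0.23 without ABT CL replicate 2. The 8 genes lay between -0.46 ± 0.25 (Snhg1) and 0.13 ± 0.34 (Snhg8) in UUO kidneys and between -0.29 ± 0.22 (Zfas1) and the Snhg6 value in CL kidneys. None of the 8 had an unadjusted p under 0.05, and no difference was detectable at this depth.

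VeKO and VeWT mice gave wider errors for Snhg6. Again 0% of all genes were called by edgeR's quasi-likelihood test in UUO kidneys, CL kidneys and the difference of the UUO minus CL values, with 426, 229 and 324 genes at an unadjusted p under 0.05. In UUO kidneys DESeq2 called 1 gene and edgeR's exact test 4, none of them among the 8, and in CL kidneys both called 0. Snhg6 differed by -0.14 ± 0.48 in UUO kidneys (adjusted p = 0.99994, edgeR), by 0.35 ± 0.59 in CL kidneys (0.999946) and by -0.49 ± 0.76 in the UUO minus CL value (0.999777). With single libraries left out the UUO value ran from -0.53 without VeKO UUO replicate 1 to 0.022 without VeKO UUO replicate 7 and the CL value from 0.073 without VeKO CL replicate 2 to 0.61 without VeKO CL replicate 4. The difference of the UUO minus CL values ran from -0.88 without VeKO UUO replicate 1 to -0.22 without VeKO CL replicate 2. The 8 genes lay between -0.37 ± 0.48 (Snhg12) and 0.53 ± 0.35 (Snhg3) in UUO kidneys and between -0.49 ± 0.76 (Snhg8) and the Snhg6 value in CL kidneys. The Snhg12 value ran from -0.80 without VeKO UUO replicate 3 to -0.15 without VeWT UUO replicate 1, and the Snhg8 value from -0.85 without VeKO CL replicate 1 to 0.10 without VeWT CL replicate 3. None had an unadjusted p under 0.05. Snhg3 had 4 of 8 VeKO UUO libraries above all VeWT UUO libraries, and these were the 4 named without _. In UUO kidneys the libraries named without _ had 15.4 to 20.1 CPM in VeWT and 28.3 to 37.9 CPM in VeKO mice, a difference of 0.83 ± 0.37 when fitted alone, and those named with _ had 6.52 to 16.3 and 11.2 to 16.2 CPM (0.23 ± 0.29). Neither passed, with adjusted p-values of 0.411 and 0.929 (edgeR). Without the libraries numbered 3, 4, 7 and 8 the Snhg6 difference was -0.05 ± 0.56 in UUO and 0.34 ± 0.74 in CL kidneys.

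PbKO and PbWT UUO kidneys differed in 2034 of 10923 genes (18.6%), and the 8 genes were not among them. Snhg3 was at 11.8, 12.6, 16.6 and 20.0 CPM in PbWT and 16.7, 17.1, 29.7 and 32.5 CPM in PbKO UUO kidneys (0.73 ± 0.28, adjusted p = 0.0705, edgeR's quasi-likelihood test). Its groups overlapped, with 2 PbKO libraries above all PbWT libraries. The values of Gas5 (-0.31 ± 0.15, 0.148), Zfas1 (-0.34 ± 0.17, 0.178) and Snhg5 (-0.55 ± 0.29, 0.195) had the other sign. For each of these 3 genes, 3 PbKO libraries lay below all PbWT libraries. Snhg1, at 22.2 to 30.1 CPM in PbKO and 30.8 to 34.1 CPM in PbWT, did not overlap between the groups, and its difference of -0.26 ± 0.21 did not pass (0.419). The share of all genes without overlap was not counted, so nothing is read from this. Snhg6 differed by -0.19 ± 0.20 (0.564), and with single libraries left out by -0.39 without PbKO UUO replicate 4 to -0.066 without PbKO UUO replicate 1. The Gas5 value ran from -0.46 without PbKO UUO replicate 1 to -0.20 without PbKO UUO replicate 2, and the Snhg5 value reached -0.84 without PbKO UUO replicate 4. The median of the 8 was -0.24, beside -0.02 for all genes, and 2 of 8, Snhg3 and Gas5, had an unadjusted p under 0.05, as did 3387 of 10923 genes.

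Scaling and single libraries changed these calls. Without TMM the median of all genes in PbKO minus PbWT UUO kidneys moved by -0.27, the share of called genes that were higher in PbKO went from 64.7% to 20.8%, and Gas5, Zfas1 and Snhg5 were called lower. Snhg3 was called higher without PbKO CL replicate 1 (adjusted p = 0.0348, edgeR), PbWT UUO replicate 1 (0.0443) or PbKO UUO replicate 3 (0.0405). Gas5 was called lower without PbKO UUO replicate 1 (0.0231). Marker sums in PbKO and PbWT UUO kidneys were 227 to 616 and 661 to 927 CPM for fibroblasts (4 of 4 called lower in PbKO), 156 to 186 and 214 to 317 CPM for macrophages (3 of 6 lower), and 5124 to 8289.6 and 3134 to 3817 CPM for tubule and podocyte (5 of 8 higher). Of the dividing-cell and endothelial markers 2 of 4 each were called lower, and the part of these cells was not tested.

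In CL kidneys of PbKO and PbWT mice 0% of all genes were called by edgeR's quasi-likelihood test, with 378 at an unadjusted p under 0.05, and 0 by DESeq2 and edgeR's exact test. Zfas1 had the widest difference of the 8 genes there, 0.41 ± 0.24 (adjusted p = 0.999988), and Snhg6 stood at -0.24 ± 0.28. The Zfas1 value was 0.25 without PbWT CL replicate 4, and the Snhg6 value -0.14 without PbKO CL replicate 4. In the difference of the UUO minus CL values, where 8.56% of all genes were called, Zfas1 was at -0.75 ± 0.30 (adjusted p = 0.123, edgeR), Snhg3 at 0.78 ± 0.44 (0.322) and Snhg6 at 0.05 ± 0.34 (0.961). None of the 8 passed. The Snhg3 value was 0.46 without PbKO CL replicate 1, and the Snhg6 value ran from -0.15 without PbKO UUO replicate 4 to 0.17 without PbKO UUO replicate 1. Without TMM the median of all genes moved by -0.29, the share of called genes with a higher value in PbKO went from 77.9% to 31.8%, and Zfas1 was called at -1.05.

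**Figure D5:**
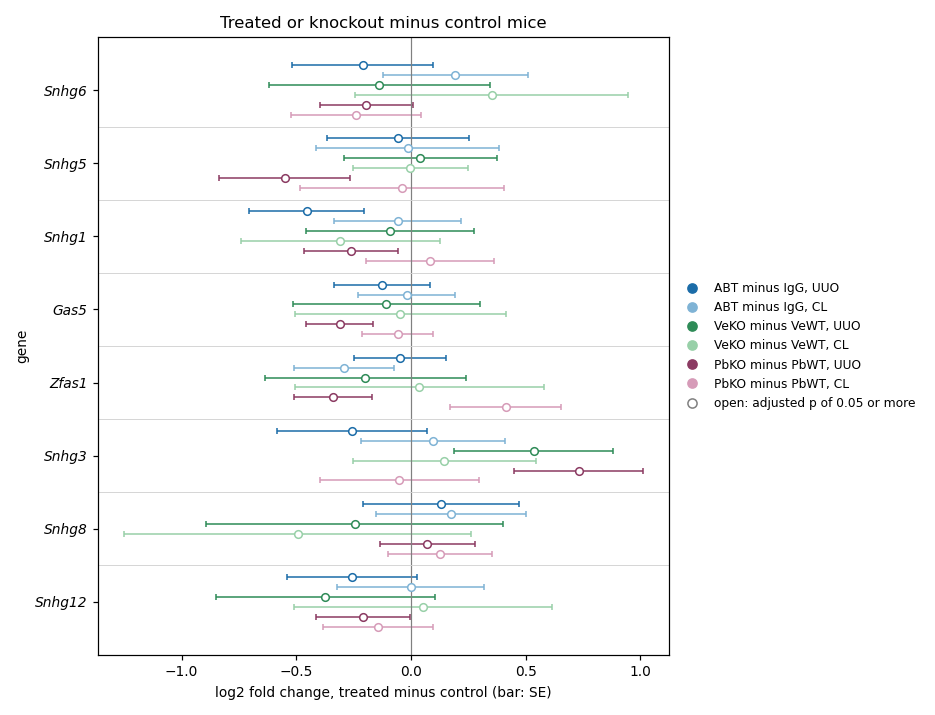
Fitted log2 fold change of each gene between treated or knockout and control mice, in UUO and CL kidneys of the 3 arms, with the SE as bars. All points are open, since no gene reached an adjusted p of 0.05.

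The wider pathway was read from lists, in UUO against CL kidneys. Of all genes tested, 16.3% were called higher in IgG, 12.6% in ABT and 10.0% in VeWT mice. The share was 4.47% in VeKO, 17.9% in PbWT and 3.94% in PbKO mice. Called lower were 1740 of 9579 in IgG and 1197 in ABT mice, and 999 of 11916 in VeWT and 414 in VeKO mice. In the Pdgfb arm 2119 of 10923 were called lower in PbWT and 264 in PbKO mice. These numbers also stand beside the marker counts above. Of 14 other noncoding snoRNA hosts 13 had a row and 5 to 9 were tested in an arm, and edgeR's quasi-likelihood test called 0 higher in any kind of mouse. DESeq2 called 0 in IgG, ABT, VeWT, VeKO and PbKO mice, and 1 gene had an unadjusted p under 0.05 in PbKO mice and 0 in the other 4. The 1 call was Snhg11, lower in PbWT mice at -1.02 ± 0.25. In IgG mice Snhg11 was at -0.33 ± 0.21, Snhg16 at 0.51 ± 0.33, Snhg14 at -0.38 ± 0.26 and Snhg4 at 0.16 ± 0.13. The list's median was 0.16 in IgG, 0.01 in ABT, 0.07 in VeWT, 0.19 in VeKO, -0.28 in PbWT and -0.13 in PbKO mice. Without TMM the PbWT median was 0.09, with 3 genes called higher and 1 lower.

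Protein-coding hosts keep snoRNAs in the introns of ribosomal protein, translation factor and nucleolar genes. Of 27, all tested, 12 were called higher and 1 lower in IgG and in ABT mice, 7 higher and 4 lower in PbWT mice, and 0 in VeWT, VeKO and PbKO mice by edgeR's quasi-likelihood test. Of these, VeWT mice had 3, VeKO mice 3 and PbKO mice 7 genes with an unadjusted p under 0.05, where DESeq2 called 3, 1 and 0. The median was 0.39 in IgG, 0.38 in ABT, 0.36 in VeWT, 0.38 in VeKO, 0.05 in PbWT and 0.15 in PbKO mice. Without TMM 20 were called higher in IgG, 18 in ABT, 5 in VeWT, 2 in VeKO and 4 in PbKO mice, and 1 lower in ABT mice and 0 in the other 4. The PbWT median without TMM was 0.43, with 19 called higher and 1 lower. In IgG mice Nop58, a core protein of C/D snoRNPs, rose by 0.87 ± 0.18, Eif4a1, a translation initiation helicase, by 0.65 ± 0.15, and Rpsa, a protein of the small ribosomal subunit, by 0.64 ± 0.15. Hspa9, a mitochondrial chaperone, was the 1 called lower (-0.42 ± 0.09). In PbKO against PbWT UUO kidneys 2 were called higher, Hspa9 (0.47 ± 0.14) and Hspa8 (0.43 ± 0.15), both named because they passed. Without TMM 0 were higher there and 6 lower.

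Of 18 proteins that form or assemble snoRNPs, 13 to 18 were tested. In IgG mice 3 rose, Nop58, Nop56 (0.90 ± 0.22), the partner of Nop58 in C/D snoRNPs, and Dkc1 (0.72 ± 0.22), the pseudouridine synthase of H/ACA snoRNPs, and Ruvbl1, an assembly ATPase, was at 0.41 ± 0.21 and not called. Nop58, Nop56 and Dkc1 are also on the list of protein-coding hosts, so their calls are not separate from those above. ABT mice had 3 called higher, VeWT 1, VeKO 2 and PbWT 5 with 1 lower, and PbKO mice 0 by edgeR's quasi-likelihood test and by DESeq2, with 5 at an unadjusted p under 0.05. Named for having passed, they were Nop56, Nop58 and Znhit6 in ABT, Tcof1 in VeWT, Nufip1 and Znhit6 in VeKO, and Nop56, Nop58, Dkc1, Fbl and Ruvbl2 in PbWT mice, where Nop10 was lower. The median was 0.36 in IgG, 0.35 in ABT, 0.22 in VeWT, 0.38 in VeKO, 0.25 in PbWT and 0.21 in PbKO mice. Without TMM 6 were called higher in IgG, 4 in ABT, 2 in VeWT, 2 in VeKO, 9 in PbWT and 1 in PbKO mice, with 0 lower, and the PbWT median was 0.63. In PbKO against PbWT UUO kidneys Nop10 was called higher (0.47 ± 0.14) and Nufip1 lower (-1.03 ± 0.34), and without TMM 0 were called higher and 5 lower.

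Of 15 genes of ribosomal RNA synthesis and maturation, 14 or 15 were tested. The number called higher was 5 in IgG, 2 in ABT, 2 in VeWT, 1 in VeKO, 5 in PbWT and 2 in PbKO mice, with 0 lower, and the median was 0.41 in IgG, 0.29 in ABT, 0.26 in VeWT, 0.26 in VeKO, 0.33 in PbWT and 0.12 in PbKO mice. Without TMM 10 were called higher in IgG and 10 in PbWT mice. Myc, a transcription factor that drives ribosome production, was called in all 6, at 2.35 ± 0.37 in IgG, 3.05 ± 0.37 in PbWT and 1.68 ± 0.40 in PbKO mice. Npm1, a nucleolar chaperone, was called in all but VeKO mice and stood at 0.82 ± 0.12 in IgG mice. Wdr12 (0.64 ± 0.17), which acts in large subunit maturation, and Ncl (0.43 ± 0.12), a major nucleolar protein, were called in IgG and PbWT mice, as were Pes1 in IgG and Polr1a in PbWT mice, the last 2 named because they passed. Ncl is also on the list of protein-coding hosts.

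Factors of nonsense-mediated decay, the pathway that removes the spliced RNA of several hosts, had 12 to 14 of 14 tested. edgeR's quasi-likelihood test called 0 higher in any kind of mouse and 1 lower, Smg5 in PbWT mice, with 0 to 3 genes at an unadjusted p under 0.05, and DESeq2 called 0 throughout. Without TMM 6 were called higher in IgG and 6 in PbWT mice. In IgG mice Upf3b was at 0.56 ± 0.23, Smg6 at 0.46 ± 0.20, Smg1 at 0.32 ± 0.17 and Rbm8a at 0.35 ± 0.19. The median was 0.35 in IgG, 0.11 in ABT, 0.18 in VeWT, 0.07 in VeKO, 0.10 in PbWT and 0.05 in PbKO mice. In the comparisons of treated with control mice edgeR's quasi-likelihood test called no gene of the 5 lists other than the 4 named above in PbKO against PbWT UUO kidneys. DESeq2 called 3 protein-coding hosts, 1 snoRNP gene, 1 rRNA gene and 0 decay factors there, and 1 protein-coding host in the difference of the UUO minus CL values. Without TMM 7 rRNA genes and 2 of nonsense-mediated decay were called lower in PbKO UUO kidneys.

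The genes whose pattern was most like that of Snhg6 were sought over 9 values, the group means of log2(CPM + 1) relative to each arm's control CL group, among 7825 genes. They were Ybx3, a cold-shock protein, with a root mean square difference of 0.12, Ifnar1, a chain of the type I interferon receptor (0.13), 4930533K18Rik (0.15), Clic1, a chloride channel protein (0.16), and Hmgb2, a chromatin protein of dividing cells (0.16). Of the other 7 host genes Gas5 came nearest, at rank 36 with 0.19.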

How the data were processed

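RNA of 75 whole kidneys in 12 groups was sequenced by Smart-seq3 with molecular identifiers. The deposited values are raw counts per gene, which the authors made with STAR 2.7.3a on mm10, UMI-tools 1.1.4 and featureCounts of Subread 1.4.6-p5, as named in the study's methods and the submitters' processing notes. For the annotation and strand setting, nothing is given in the sources used here. Totals of 172827 to 2341800 counts per library limit the precision of genes with few counts, and no 2 libraries held identical values.

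Each arm was fitted on its 4 groups with edgeR 4.0.16 in R 4.3.3 (quasi-likelihood test, TMM normalisation, edgeR's filter on low counts, no covariate). Benjamini-Hochberg adjustment ran over all genes tested in the arm, with a threshold of 0.05. The SE is the log2 fold change divided by the square root of F. Levels are TMM-scaled CPM, with 1 added before a log. The test was checked on simulated counts. Figures were drawn with matplotlib 3.10.9. Sequences come from the mm10 reference genome and the GENCODE vM21 annotation.

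The 8 genes, the gene lists and the marker lists were chosen with earlier results of these data known. All 8 genes are named in each comparison, and from each other list up to 4 genes with the lowest adjusted p for UUO against CL kidneys in IgG mice. The 5 genes most like Snhg6 had the smallest root mean square difference among genes tested in all arms with a mean of at least 20 CPM.

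The lists were other noncoding hosts, protein-coding hosts, snoRNP proteins, ribosomal RNA synthesis and maturation, nonsense-mediated decay, and markers of tubule and podocyte, tubular injury, macrophages, fibroblasts, endothelium, fat and dividing cells. A list of lymphocyte markers is not reported here. None of the 30 distinct symbols of the annotated snoRNA entries and of 29 listed snoRNA symbols had a row, so snoRNA levels were not analysed here.

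Alternatives were no TMM, DESeq2 1.42.0, edgeR's exact test, which the study's methods name, other filters on low counts, 1 fit over all 12 groups, a covariate for the form of the library name, 1 form alone, a replicate block, counts thinned to the shallowest library of the arm, and each library left out. Where the labels' numbers are shared by a CL and a UUO library of ABT mice (9, 11 and 12), the deviations from the group means correlated at 0.397, 0.210 and 0.166 over genes, so these numbers were taken as pairs by this check alone, and the labels do not say what a number stands for. The fit reported has no block. The labels do not say whether libraries of a group came from separate mice throughout, and p-values measure the spread between these libraries.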

Additional observations from a re-analysis of the deposited data

Results flagged for a closer look

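Of 96 sets, each 1 of the 8 genes in 1 group of libraries, 11 held a highest library far from the others by Dixon's test, and chance gives about 1 in 20. The values that follow are CPM, and each is followed by the next highest library of the group. Snhg6 stood at 78.8 in VeKO UUO replicate 1, beside 29.9. Snhg3 stood at 35.4 in ABT CL replicate 4 (19.8), 39.4 in VeWT CL replicate 3 (20.3) and 40.8 in VeKO CL replicate 2 (15.4). Snhg12 stood at 49.0 in IgG UUO replicate 4 (26.8), 39.8 in ABT UUO replicate 2 (22.8), 54.3 in VeKO CL replicate 2 (19.3) and 37.8 in VeKO UUO replicate 3 (18.9).

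Gas5 was at 303 in VeKO CL replicate 2 (131), Snhg8 at 90.1 in VeWT CL replicate 3 (37.2) and Snhg5 at 21.5 in VeWT UUO replicate 4 (13.7). VeKO CL replicate 2 was the highest library of 3 of these sets and VeWT CL replicate 3 of 2. All libraries flagged here had names without _. They held 172827 (IgG UUO replicate 4) to 723351 (VeKO UUO replicate 3) counts, below the median of 757897 over all libraries. The part of the name form and of depth was not tested.

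Both deleted genes differed between PbKO and PbWT mice in the UUO minus CL value, by an interaction term. For Ptprb the difference was -1.12 on the log2 scale (adjusted p = 0.0107, edgeR), although the Pdgfb arm carries no Veptp deletion. For Pdgfb it was -1.26 (adjusted p = 0.0461, edgeR), with the higher level in the libraries labelled Pdgfb iKO in CL kidneys and the lower one in UUO kidneys.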

How the results depend on the processing

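The 18 called values above held their direction under each alternative that was run, and the number of the 8 genes called changed with several. In UUO against CL kidneys edgeR's exact test gave 3 in IgG, 1 in VeWT and 1 in PbKO mice, beside 2698, 2004 and 615 genes. DESeq2 gave 1 in PbKO mice, beside 619 genes. A mean count of at least 20 gave 2, 2 and 1 in IgG, ABT and VeWT mice, since it leaves fewer genes. Thinned counts gave 1, 0, 0, 1 and 0 in IgG, ABT, VeWT, PbWT and PbKO mice. No TMM gave 4 in VeWT and 1 in VeKO mice, beside 1926 and 855 genes. The number of all genes called is not given here for the other alternatives, and nothing is read from these counts. In 1 fit over all groups there were 4, 2, 2 and 0 in VeWT, VeKO, PbWT and PbKO mice. With the name form as a covariate VeWT mice had 4 and VeKO mice 3. Names without _ alone gave 2 in IgG and 2 in ABT mice, and names with one 3 in VeKO mice. Without the libraries numbered 3, 4, 7 and 8, whose numbers carry opposite genotypes in CL and UUO kidneys, VeWT mice had 0. Single libraries left out gave 0 to 3 in VeWT, 0 to 1 in VeKO, 1 to 2 in PbKO mice and 0 to 1 in PbKO against PbWT UUO kidneys. Without TMM that last comparison had 3 called, beside 3157 of 10923 genes, and the response 1, beside 980, and nothing is read from either count. The mean of the 8 genes, UUO minus CL, was 1.01 without TMM and 0.55 thinned in PbWT mice, and 0.065 thinned in PbKO mice. These causes were not tested.

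Values that changed sign lay near 0 in most cases and none was called. Zfas1 in the ABT minus IgG response was -0.35 thinned and -0.072 with names that hold _ alone, where it was 0.065 in CL kidneys. Snhg8 in VeKO minus VeWT CL kidneys was 0.38 with the name form as a covariate and 1.17 with names that hold _ alone, where the Snhg3 response was -0.19. Snhg6 in VeKO minus VeWT UUO kidneys was 0.047 with names without _ alone. The Snhg6 PbKO minus PbWT response was -0.24 without TMM and -0.039 in 1 fit over all groups. With single libraries left out it ran from -0.15 to 0.17, Snhg6 in VeKO minus VeWT UUO kidneys from -0.53 to 0.022, Snhg8 in VeKO minus VeWT CL kidneys from -0.85 to 0.10 and Snhg8 in ABT minus IgG UUO kidneys from -0.040 to 0.31.

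In the Veptp arm the numbers shared by CL and UUO libraries were not taken as pairs, since number 5 correlated at 0.063, and not every library correlated best with its own number. The other 7 numbers correlated at 0.118 to 0.438, and among them 3, 4, 7 and 8, which join opposite genotypes, at 0.438, 0.291, 0.137 and 0.290. Whether labels are crossed was not tested. With the shared numbers as a replicate block VeKO mice had 4 of the 8 genes called and Snhg6 in VeKO minus VeWT UUO kidneys was 0.012. The block changed no other count by over 1.5 times. Shallow libraries and few counts of Snhg5 and Snhg6 limit the size of difference that could be seen.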
